A study of Mus musculus with 4 samples.

Results

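The collagen genes are the 44 rows of the deposited gene table whose whole symbol is Col, a number, the letter a and a number, out of 24421 rows. The rule uses the name alone and no measured value. Of them, 11 encode fibrillar chains, 6 encode type IV chains of basement membranes and 27 encode other collagens. Col4a3bp also starts with these letters but encodes a lipid transfer protein that carries ceramide, and it was left out. RNA from colon had been sequenced in 4 C57BL/6 mice of 8 weeks, 2 labelled Usp25+/+ (WT-139, WT-140) and 2 labelled Usp25-/- (KO-826, KO-850). The Usp25 protein removes ubiquitin from other proteins. Every mouse had received 2.5% dextran sulfate sodium (DSS), which injures the gut lining, for 5 days and normal water for 2 days, so no group without DSS stands beside them. Per the labels' protocols, each library came from a whole piece of colon near the anus and from polyadenylated RNA. How the Usp25 allele was made, and whether it is absent from all cells, is not given in the sources used here.

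Collagens are proteins of the extracellular matrix whose chains wind around each other into long helices. Fibrillar collagens, led by types I and III, are secreted mainly by fibroblasts and line up into the fibres that carry tension in the submucosa and around crypts. Type IV collagen forms a flat network in the basement membrane under epithelium and around blood vessels and muscle cells. The other collagens decorate fibres, form beaded filaments, anchor basement membranes or span the cell membrane. Collagen has long been studied in colitis because ulcers heal by laying down new matrix and may scar.

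Values are FPKM, read fragments scaled by transcript length and by library size, so levels can be set side by side between genes. Differences are given as Usp25-/- minus Usp25+/+ on the scale log2(FPKM + 1), which understates the change of low genes, with the standard error (SE) from limma. A gene was tested when it reached 1 FPKM in at least 2 mice. That held for 15 of the 44 collagen genes, 6 of 11 fibrillar, 3 of 6 type IV and 6 of 27 other, and for 12103 genes in all. The remaining 29 collagen genes were too low to test. Permuting single values exactly between 2 and 2 mice gives p = 0.333 at the lowest.

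Before the collagens, some facts about the libraries bear on what follows. Usp25 itself stood at 38.5 and 16.6 FPKM in the mice labelled Usp25+/+ and at 2.65 and 1.71 FPKM in those labelled Usp25-/-, a difference of -3.07 ± 0.47 (limma adjusted p = 0.968) that follows the labels. Mouse WT-139 stood apart, with Pearson correlations of 0.876 to 0.890 to the other libraries over the tested genes, against 0.933 to 0.968 among the other libraries, and with a sum of 39546 FPKM over 3 neutrophil genes against 678 to 1932 FPKM elsewhere. All 4 genes listed for colon epithelium stayed below 1 FPKM in every mouse, Zg16 and Aqp8 being listed at 0 throughout, whereas 4 lung epithelial genes summed to between 1983 and 4946 FPKM. The libraries are called colon only as their labels do. The share of genes listed at 0 was 15.8% in mouse WT-139 and 29.4% to 36.1% in the others, and the number of reads behind an FPKM is unknown.

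The promoters of 5 collagen genes are shown first, because the level of these genes carries most of what follows. They come from RefSeq on build GRCm38.p6, read 5′ to 3′ on the strand of the gene from 250 bases before its start to 50 bases after it. Of the 44 collagen genes 35 had an entry, with 38 windows in all, and of the 15 tested genes 12 had one. Col1a1, Col5a2 and Col14a1 had no entry. Capitals mark every match of the CCAAT box, of the GC box GGGCGG or of the TATA box TATAAA, each searched on both strands, so that the reverse complement of a motif is in capitals too. Matches of one motif were not removed where they overlapped another. Col4a1 and Col4a2 are head-to-head neighbours on chromosome 8 whose gene models overlap by 22 bases on mm9, and their windows share 78 bases, from 11312777 to 11312854.
Col4a1 (chr8:11312777-11313076, minus strand): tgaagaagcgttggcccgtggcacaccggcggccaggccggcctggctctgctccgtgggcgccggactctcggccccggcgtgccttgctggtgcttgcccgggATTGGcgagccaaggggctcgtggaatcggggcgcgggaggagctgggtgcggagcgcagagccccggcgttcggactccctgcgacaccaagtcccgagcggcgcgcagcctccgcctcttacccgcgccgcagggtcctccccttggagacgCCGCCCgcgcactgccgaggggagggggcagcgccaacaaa
Col4a2 (chr8:11312555-11312854, plus strand): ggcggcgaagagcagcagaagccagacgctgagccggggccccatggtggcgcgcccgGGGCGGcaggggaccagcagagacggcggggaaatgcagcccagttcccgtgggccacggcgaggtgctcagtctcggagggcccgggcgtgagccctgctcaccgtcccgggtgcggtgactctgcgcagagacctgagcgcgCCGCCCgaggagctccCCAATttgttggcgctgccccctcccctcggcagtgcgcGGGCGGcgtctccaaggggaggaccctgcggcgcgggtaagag
The fibrillar genes Col1a2 and Col3a1 are shown because both were highest in the same mouse.
Col1a2 (chr6:4505368-4505667, plus strand): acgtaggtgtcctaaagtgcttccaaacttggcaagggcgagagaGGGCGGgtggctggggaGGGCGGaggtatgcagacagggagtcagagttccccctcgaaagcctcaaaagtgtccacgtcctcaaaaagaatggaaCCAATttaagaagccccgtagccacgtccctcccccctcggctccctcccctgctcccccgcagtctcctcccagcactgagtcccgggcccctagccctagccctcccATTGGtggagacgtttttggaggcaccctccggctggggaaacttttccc
Col3a1 (chr1:45311288-45311587, plus strand): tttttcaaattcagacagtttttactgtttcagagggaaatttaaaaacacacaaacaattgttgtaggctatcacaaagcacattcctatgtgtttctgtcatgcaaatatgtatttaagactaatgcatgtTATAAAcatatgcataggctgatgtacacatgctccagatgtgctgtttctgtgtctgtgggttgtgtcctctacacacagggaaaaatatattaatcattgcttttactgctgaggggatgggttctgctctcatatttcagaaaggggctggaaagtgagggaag
Col18a1 has 2 starts in RefSeq, and its FPKM is for the gene as a whole, so the table does not say which of them was used.
Col18a1, upstream start (chr10:77166481-77166780, minus strand): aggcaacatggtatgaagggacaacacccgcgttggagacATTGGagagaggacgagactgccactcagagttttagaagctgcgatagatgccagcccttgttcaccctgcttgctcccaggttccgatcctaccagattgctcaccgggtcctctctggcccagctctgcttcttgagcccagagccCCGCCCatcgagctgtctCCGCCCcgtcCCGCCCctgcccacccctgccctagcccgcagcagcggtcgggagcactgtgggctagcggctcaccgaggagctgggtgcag
Col18a1, downstream start (chr10:77113656-77113955, minus strand): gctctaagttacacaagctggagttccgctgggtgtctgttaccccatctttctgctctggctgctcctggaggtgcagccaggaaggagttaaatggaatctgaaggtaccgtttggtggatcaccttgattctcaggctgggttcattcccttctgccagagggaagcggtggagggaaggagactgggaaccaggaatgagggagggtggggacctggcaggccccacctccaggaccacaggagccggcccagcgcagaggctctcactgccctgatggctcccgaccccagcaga

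The windows differed in their letters. The Col4a1 and Col4a2 windows hold the same GGGCGG site at 11312812 to 11312817 on chromosome 8, read as CCGCCC on the strand of Col4a1, and each holds 1 CCAAT match of its own. Col4a2 has 2 more GGGCGG matches, which began 192 and 48 bases before its start. Their GC content was 74.0% and 73.7%. Col3a1 had no CCAAT or GGGCGG match, 1 TATAAA match that began 117 bases before its start, and a GC content of 37.7%. In Col1a2 a CCAAT match began 109 bases before the start and another, on the opposite strand, at the start itself. The upstream Col18a1 window has 3 GGGCGG matches, read as CCGCCC, that began 61, 43 and 33 bases before the start, and the downstream window has no match of the 3 motifs. Over all 38 collagen windows, CCAAT was found in 34.2% and TATAAA in 13.2%, against 37.4% and 13.6% of 32851 RefSeq windows of the same length. GGGCGG was found in 60.5% of the collagen windows and in 35.7% of all windows, where the median GC content was 59.8% for the collagens and 52.7% for all. A match describes these letters and is not a binding site.

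Collagen transcripts were present at moderate levels, and Col4a1, a basement membrane chain, led them in every mouse. All 44 rows summed to 85.6 and 108 FPKM in the Usp25+/+ mice (WT-139, WT-140) and to 91.02 and 155 FPKM in the Usp25-/- mice KO-826 and KO-850. Type IV genes gave 36.7%, 57.5%, 42.4% and 42.4% of that sum, in the same order of mice. Fibrillar genes gave 26.3%, 21.3%, 28.9% and 39.3%, and the other collagens 37.0%, 21.2%, 28.7% and 18.2%. Type IV was the largest class in 3 mice and stood just under the other collagens in mouse WT-139. The level of Col4a1 was above 84.6% to 93.5% of all genes in the table. The 4 genes Col4a1, Col4a2, Col3a1 and Col1a2 together made up 48.6% of the sum in mouse WT-139 and 58.4% to 69.4% in the others.

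**Figure D1:**
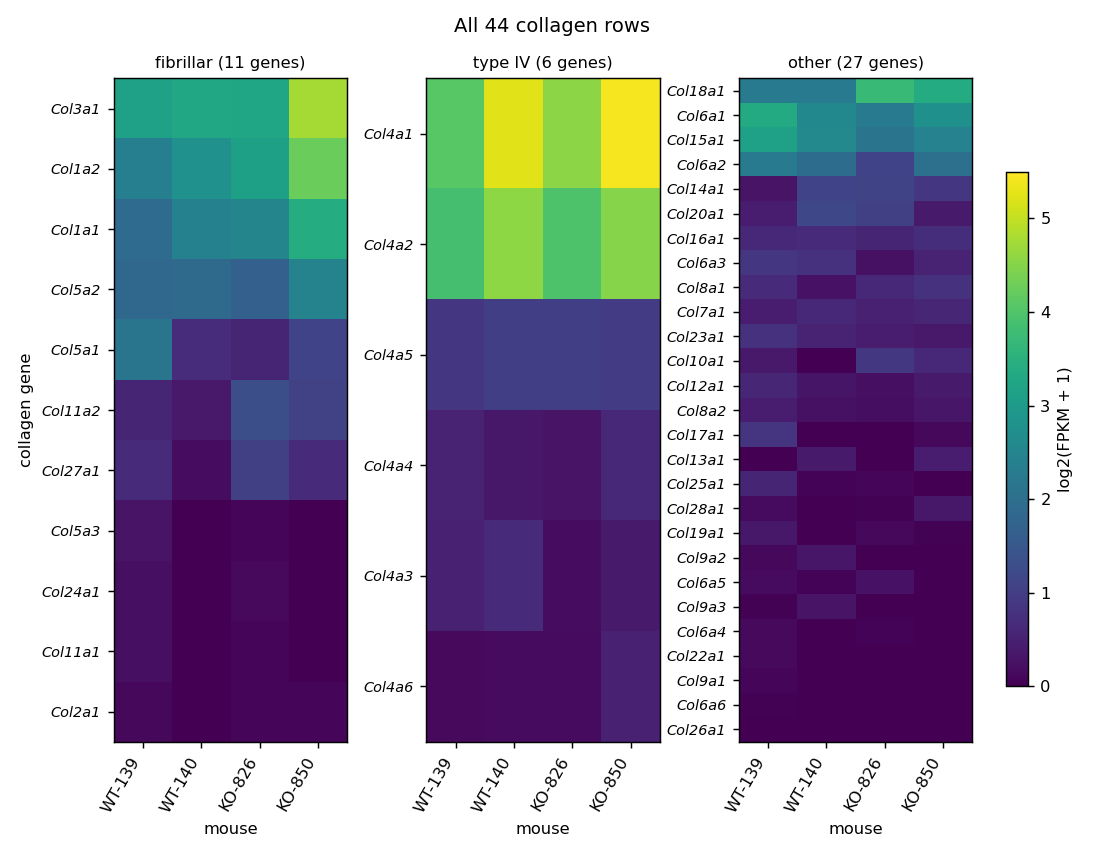
Level of each of the 44 collagen rows in the 4 mice as log2(FPKM + 1), by colour, with a panel each for 11 fibrillar, 6 type IV and 27 other genes, and genes ordered by mean FPKM within a panel. Col4a1 and Col4a2 are the brightest rows, mouse KO-850 has the brightest fibrillar column, and most rows of the panel of other collagens are dark.

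No collagen gene passed the test between the genotypes. By limma with Benjamini-Hochberg adjustment at 0.05, 0 of the 15 tested collagen genes were called, against 0% of all 12103 tested genes, and the smallest adjusted p among all genes was 0.346. At an unadjusted p under 0.05 there was 1 collagen gene, Col18a1, against 3.30% of all tested genes, 2.25% on the higher and 1.06% on the lower side. Of the 15 genes 10 had positive and 5 negative differences, and positive differences made up 53.6% over all tested genes. The values of the genotypes did not overlap for Col1a1, Col1a2, Col11a2 and Col18a1, which were higher in both Usp25-/- mice, and for Col15a1, which was lower. These are 4 of 15 genes against 19.0% of all tested genes on the higher side and 1 of 15 against 14.7% on the lower side. Col11a2 passed the filter only through the Usp25-/- mice, where it is high. A filter on a mean of at least 1 FPKM left it out, together with Col4a5, Col14a1 and Col20a1, and the higher count was then 3. The share of all genes under that filter was not computed. In total 5 of 15 did not overlap, Col11a2 among them, next to 33.7% of all tested genes. The median difference over the 15 genes was 0.20, beside 0.03 over all tested genes.

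The 3 classes had different medians, 0.76 for the 6 tested fibrillar genes, 0.04 for the 3 tested type IV genes and -0.27 for the 6 tested other genes. Since tested members had to reach 1 FPKM in 2 mice, these medians describe only the genes that did. The fibrillar genes include Col11a2, which passed only through the Usp25-/- mice, where it is high. With a filter on a mean of at least 1 FPKM, which left Col11a2 out, the fibrillar median was 0.77. With every row above 0 in at least 1 mouse included, the medians were 0.20, 0.03 and -0.07. These are medians of differences on the log2(FPKM + 1) scale. The fibrillar median was 0.16 without mouse KO-850.

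**Figure D2:**
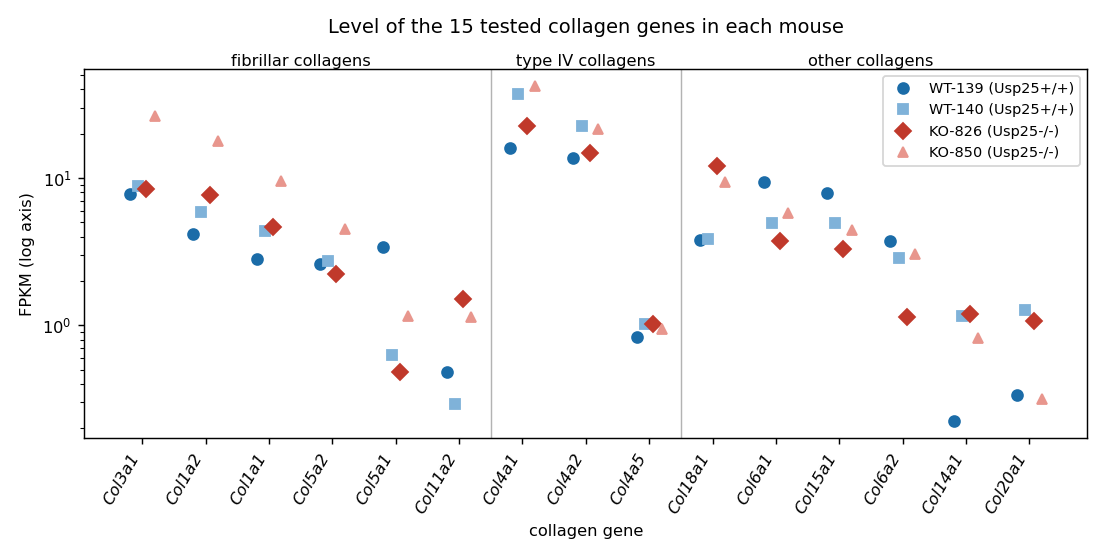
FPKM on a log axis for the 15 tested collagen genes, with 1 point for each of the 4 mice and genes grouped as fibrillar, type IV and other. The triangle of mouse KO-850 is the highest point for Col3a1, Col1a2, Col1a1 and Col5a2, and both Usp25-/- points lie above both Usp25+/+ points for Col18a1 and Col11a2.

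Among fibrillar collagens the genes of types I and III were highest in mouse KO-850, and the other Usp25-/- mouse stood near the Usp25+/+ mice. Col3a1, the chain of type III collagen that forms fine reticular fibres, had 7.80 and 8.82 FPKM in the Usp25+/+ mice, against 8.37 and 26.2 FPKM in the Usp25-/- mice (mean 8.31 ± 0.723 against 17.3 ± 12.6, SD, n = 2). Mouse KO-850 alone was high, and the groups overlap. The difference was 0.78 ± 0.55 (SE, limma adjusted p = 0.968) and 0.01 without mouse KO-850. The gene lies on chromosome 1 from 45368383 to 45406551 on the plus strand (mm9).

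Col1a2 and Col1a1 encode the 2 chains of type I collagen, the main collagen of scar and submucosa. Col1a2 had 4.18 and 5.92 FPKM in the Usp25+/+ mice, against 7.70 and 17.8 FPKM in the Usp25-/- mice. Col1a1 had 2.81 and 4.38 against 4.64 and 9.61 FPKM. Both Usp25-/- mice were above both Usp25+/+ mice for each gene, by a narrow margin for Col1a1 in mouse KO-826. The difference was 1.09 ± 0.46 for Col1a2 and 0.77 ± 0.42 for Col1a1, each with a limma adjusted p of 0.968. Without mouse KO-850 these became 0.54 and 0.32, and without mouse KO-826 1.65 and 1.23. Without mouse WT-139 they were 0.89 and 0.52. The type I trimer holds more alpha 1 than alpha 2 chains, yet the ratio of Col1a1 to Col1a2 FPKM was below 1 in all 4 mice. It was 0.672 and 0.740 in Usp25+/+ mice and 0.603 and 0.539 in Usp25-/- mice, so the groups do not overlap in this ratio either. The FPKM ratio also depends on the transcript lengths that were used, for which the sources used here give no value.

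Col5a2 and Col5a1 encode chains of type V collagen, which starts type I fibres and limits their width. Col5a2 had 2.60 and 2.73 against 2.24 and 4.50 FPKM, again highest in mouse KO-850 with overlapping groups. It lies on chromosome 1 next to Col3a1, 24614 bases away, with the opposite orientation. The level of Col3a1 was 3.004 and 3.23 times that of Col5a2 in Usp25+/+ mice and 3.73 and 5.82 times in Usp25-/- mice. Col5a1 went another way. It had 3.43 and 0.632 FPKM in the Usp25+/+ mice, against 0.483 and 1.16 FPKM in the Usp25-/- mice, so that mouse WT-139 alone was high. Its difference was -0.59 ± 0.57 with all mice and 0.13 without mouse WT-139.

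Of the remaining fibrillar collagens, only Col11a2 was tested. Col11a2, a chain of type XI collagen, had 0.483 and 0.291 FPKM in the Usp25+/+ mice, against 1.51 and 1.13 FPKM in the Usp25-/- mice. The groups do not overlap, at a low level. Its difference was 0.74 ± 0.33 (limma adjusted p = 0.968) and 1.56 with a pseudocount of 0.1. Col27a1 reached 1.07 FPKM in mouse KO-826 and 0.142 to 0.589 FPKM in the others. Col2a1, Col5a3, Col11a1 and Col24a1 did not exceed 0.220 FPKM in any mouse.

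The summed fibroblast markers were highest in the same mouse as the summed fibrillar collagens, mouse KO-850. The summed level of 11 fibrillar genes was 22.5 and 22.9 FPKM in Usp25+/+ mice and 26.3 and 61.1 FPKM in Usp25-/- mice. Over 6 fibroblast genes, all of them tested, the sum was 39.0 and 45.7 FPKM against 28.5 and 78.3 FPKM. Dcn and Lum are also in the list of fibril-binding genes, and Dcn gave most of the sum, with 59.7 FPKM in mouse KO-850. Pdgfra and Pdgfrb were highest in mouse WT-139 instead, at 3.001 and 1.61 FPKM. Of the 6 genes 3 had positive and 3 negative differences, and none separated the genotypes. Their part in the level of the fibrillar genes was not tested. In whole tissue, fewer cells of a type and less RNA per cell cannot be told apart.

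**Figure D3:**
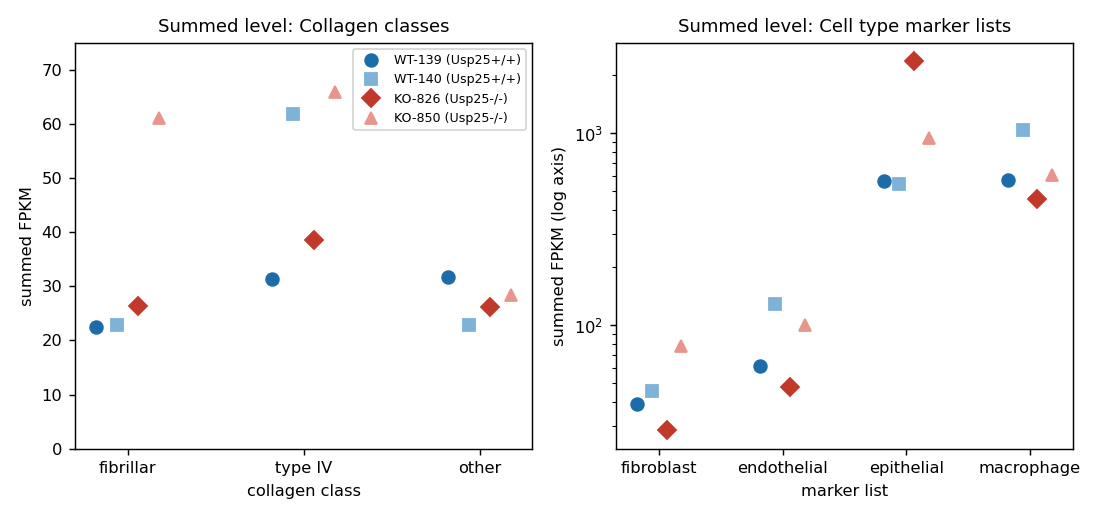
Left, summed FPKM of the 11 fibrillar, 6 type IV and 27 other collagen genes, and right, summed FPKM on a log axis of the fibroblast, endothelial, epithelial and macrophage marker lists, with 1 point for each of the 4 mice. The fibrillar sum of mouse KO-850 (61.1 FPKM) stands away from the 3 others, the type IV sums fall into a low and a high pair that cross the genotypes, and both Usp25-/- mice have the higher epithelial sums.

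Type IV collagen split the mice in a way that did not follow the genotype. Col4a1 and Col4a2 encode the chains of the type IV network found in nearly all basement membranes. Col4a1 had 15.9 and 37.3 FPKM in the Usp25+/+ mice, against 22.4 and 42.1 FPKM in the Usp25-/- mice (mean 26.6 ± 15.1 against 32.2 ± 13.9, SD, n = 2). Col4a2 had 13.7 and 22.6 against 14.7 and 21.6 FPKM. For both genes, mice WT-139 and KO-826 were low and mice WT-140 and KO-850 high, 1 of each genotype on each side. The differences were 0.32 ± 0.53 for Col4a1 and 0.02 ± 0.38 for Col4a2, with limma adjusted p of 0.972 and 0.999. Without mouse WT-139 they turned to -0.27 and -0.32, and without mouse WT-140 they were 0.91 and 0.36. Col4a1 exceeded Col4a2 in each mouse, by 1.16 and 1.65 times in Usp25+/+ and by 1.52 and 1.95 times in Usp25-/- mice. The pair lies on chromosome 8 (mm9), Col4a1 from 11198423 to 11312826 on the minus strand and Col4a2 from 11312805 to 11449287 on the plus strand.

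Endothelial genes were low in the same mice. The sum over 5 endothelial genes was 61.2 and 129 FPKM in Usp25+/+ mice and 47.8 and 100.25 FPKM in Usp25-/- mice. All 5 had negative differences and all overlapped between the genotypes. Their part in the type IV level was not tested.

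The 4 remaining type IV genes were low. They encode chains of more specialised basement membranes, such as those of the kidney filter, lung and muscle. Col4a5 was tested and had 0.838 and 1.02 FPKM in the Usp25+/+ mice, against 1.01 and 0.937 FPKM in the Usp25-/- mice, with a difference of 0.04 ± 0.31. Col4a3, Col4a4 and Col4a6 did not exceed 0.576 FPKM. These genes also sit as head-to-head pairs, Col4a3 with Col4a4 at 71 bases and Col4a5 with Col4a6 at 1308 bases. Col4a1 and Col4a2 together had 16.3 times the summed FPKM of these 4 genes in mouse WT-139 and 24.7 to 30.0 times in the others.

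The ratio of fibrillar to type IV sums was below 1 in every mouse. It was 0.718 and 0.371 in Usp25+/+ mice and 0.683 and 0.927 in Usp25-/- mice, and the groups overlap. The difference of the log2 ratio was 0.62, with an SD within groups of 0.52. Without mouse WT-140 it was 0.15 and without mouse WT-139 1.10.

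With all 4 mice and a pseudocount of 1, Col18a1 had the largest difference among the 15 tested collagens. With a pseudocount of 0.1 Col11a2 was larger (1.56 against 1.46). Without mouse KO-826 Col1a2, Col3a1 and Col1a1 were larger (1.65, 1.55 and 1.23 against 1.11). Without mouse WT-140 Col1a2 (1.303) and, in size, Col5a1 (-1.307) were slightly larger than Col18a1 (1.292). Col18a1 encodes type XVIII collagen, a heparan sulfate proteoglycan of epithelial and vascular basement membranes whose end fragment is endostatin. Col18a1 had 3.77 and 3.84 FPKM in the Usp25+/+ mice, against 12.1 and 9.41 FPKM in the Usp25-/- mice (mean 3.80 ± 0.0540 against 10.8 ± 1.90, SD, n = 2). Both Usp25-/- mice were above both Usp25+/+ mice. The difference was 1.28 ± 0.29 with an unadjusted p of 0.00627 and an adjusted p of 0.968 by limma, so it did not pass. It lay between 1.11 and 1.45 whichever mouse was left out. The gene lies on chromosome 10 from 76514923 to 76629293 on the minus strand (mm9).

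Col15a1, the only other collagen of the same family, had the reverse order. It encodes type XV collagen, which links basement membranes to fibres around vessels and muscle. Col15a1 had 7.90 and 4.97 FPKM in the Usp25+/+ mice, against 3.31 and 4.43 FPKM in the Usp25-/- mice. The groups do not overlap, with mouse WT-140 close above mouse KO-850. The difference was -0.59 ± 0.34 (limma adjusted p = 0.968) and -0.30 without mouse WT-139. The ratio of Col18a1 to Col15a1 was 0.477 and 0.773 in Usp25+/+ mice and 3.66 and 2.12 in Usp25-/- mice. Col15a1 was thus the more abundant of the pair in both Usp25+/+ mice and Col18a1 in both Usp25-/- mice. The pair was set side by side after its values had been seen.

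The 4 general epithelial markers were also higher in both Usp25-/- mice. The sum over Epcam, Cdh1, Krt8 and Krt18 was 561 and 540.1 FPKM in Usp25+/+ mice and 2364 and 936 FPKM in Usp25-/- mice. The genotypes did not overlap for any of the 4 genes, beside 19.0% of all tested genes on the higher side. Krt8 and Krt18 gave most of the sum, with 252 and 215 FPKM in mouse WT-139 and 1067 and 1030 FPKM in mouse KO-826. Of the 4 lung epithelial genes, Sftpb alone was higher in both Usp25-/- mice, Sftpc, Ager and Scgb1a1 overlapped, and Scgb1a1 had a negative difference. Mouse KO-826 was highest for the general markers and for Col18a1. The epithelial sum differed more between the Usp25-/- mice than Col18a1 did. Their part in the Col18a1 level was not tested.

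**Figure D4:**
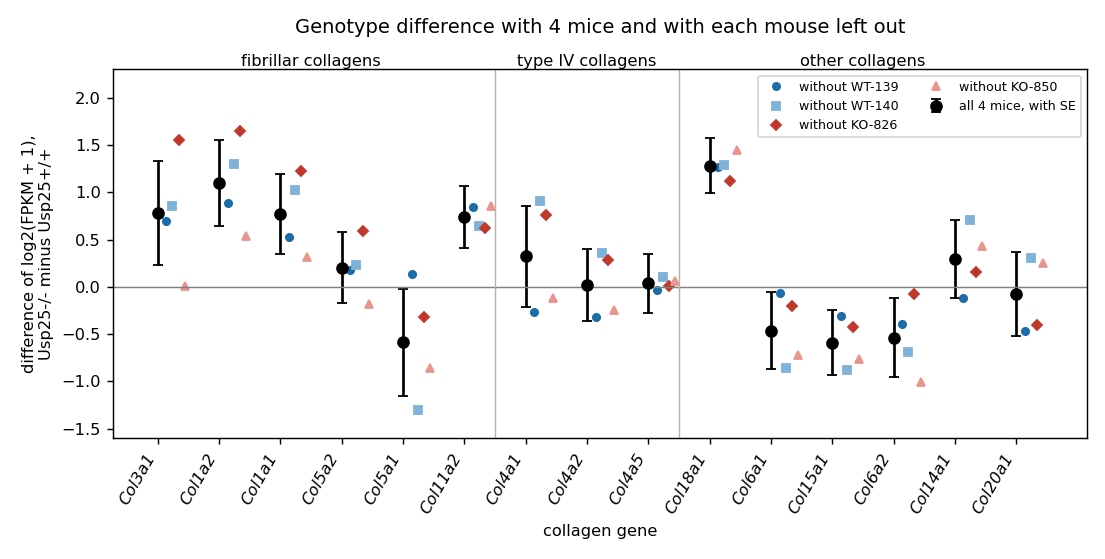
Difference of log2(FPKM + 1), Usp25-/- minus Usp25+/+, for the 15 tested collagen genes, with black points and SE bars for all 4 mice and coloured points with each mouse left out in turn. The Col18a1 points stay between 1.11 and 1.45, whereas those of Col3a1 spread from 0.01 to 1.55 and those of Col4a1 and Col4a2 lie on both sides of 0.

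Type VI collagen, which forms beaded filaments around cells, had its highest values in mouse WT-139. Col6a1 had 9.34 and 4.93 FPKM in the Usp25+/+ mice, against 3.75 and 5.81 FPKM in the Usp25-/- mice. Col6a2 had 3.74 and 2.86 against 1.14 and 3.07 FPKM. Mouse KO-826 was lowest for both, and the groups overlap for both. The differences were -0.46 ± 0.40 and -0.54 ± 0.42, and without mouse WT-139 they were -0.06 and -0.39. Without mouse KO-826 Col6a2 was at -0.07. Col6a3, a large partner chain, missed the filter at 0.188 to 0.827 FPKM, although the chains assemble together. Col6a1 had 11.3 and 6.79 times the FPKM of Col6a3 in Usp25+/+ mice and 19.95 and 12.4 times in Usp25-/- mice. Col6a4, Col6a5 and Col6a6 did not exceed 0.198 FPKM.

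The tested collagens thus peaked in different mice. Of 15 genes, 4 were highest in mouse WT-139, 3 in mouse WT-140, 3 in mouse KO-826 and 5 in mouse KO-850. Over all tested genes these shares were 29.7%, 27.2%, 25.5% and 17.6%. In mouse WT-139, the library that stood apart, Col5a1, Col6a1, Col6a2 and Col15a1 were at their highest, while 8 of the 15 genes were at their lowest, among them Col1a1, Col1a2, Col3a1, Col4a1 and Col4a2. The share of all tested genes lowest in mouse WT-139 was not computed, so this count cannot be set against it.

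Collagens that sit on the surface of fibres were low. Col14a1, which binds type I fibres, had 0.222 and 1.16 FPKM in the Usp25+/+ mice, against 1.19 and 0.815 FPKM in the Usp25-/- mice, with mouse WT-139 alone low. Col20a1 had 0.337 and 1.27 against 1.07 and 0.318 FPKM, high in 1 mouse of each genotype. Their differences were 0.30 ± 0.41 and -0.08 ± 0.44. Col16a1 was below the filter but even, at 0.475 to 0.655 FPKM. Col12a1, another fibre-binding collagen, stood at 0.174 to 0.510 FPKM.

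The other low collagens included those of cell adhesion. Col7a1, which forms the anchoring fibrils of skin and other lined surfaces, stood at 0.363 to 0.562 FPKM. Col17a1, a transmembrane collagen of hemidesmosomes, had 0.766 FPKM in mouse WT-139 and no more than 0.0861 FPKM in the others. The remaining transmembrane genes Col13a1, Col23a1 and Col25a1 did not exceed 0.726 FPKM. Col10a1, a cartilage collagen, reached 0.842 FPKM in mouse KO-826 and was listed at 0 in mouse WT-140. Col8a1, at 0.204 to 0.726 FPKM, is the only collagen gene placed on chromosome 16, where Usp25 also lies. Col26a1 was listed at 0 in all 4 mice. The number of collagen genes listed at 0 was 2 in mouse WT-139, 12 in mouse WT-140, 8 in mouse KO-826 and 12 in mouse KO-850, in the same order as the shares of all genes listed at 0 except that mice WT-140 and KO-850 tied.

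Genes that make, cross-link, bind or sense collagen were listed by role, 75 in all, and 57 of them were tested. By limma 0 of 57 passed the adjusted threshold, beside 0% of all tested genes. An unadjusted p under 0.05 was found for 1, P4ha2, beside 3.30% of all tested genes. The genotypes did not overlap for 8 genes on the higher side and 4 on the lower side, beside 19.0% and 14.7% of all tested genes. Their median difference was 0.10. P4ha2, Fkbp14, Itga1 and Tgfb3 are named below after their values were seen, and the other names were taken by mean level.

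Enzymes that modify collagen chains in the endoplasmic reticulum were abundant. P4hb, a subunit of prolyl 4-hydroxylase that is also a general disulfide isomerase, had 289 and 279.7 FPKM in the Usp25+/+ mice, against 346 and 288 FPKM in the Usp25-/- mice. P4ha2, a catalytic subunit of the same enzyme, had 5.70 and 3.50 against 11.6 and 8.61 FPKM, a difference of 1.00 ± 0.35 (limma adjusted p = 0.968). P4ha2 separated the genotypes, 1 of 12 tested genes of this role on the higher side beside 19.0% of all tested genes, whereas P4hb overlapped. Among 12 tested genes of this role 10 had positive differences, with a median of 0.12. Colgalt1, which adds galactose to hydroxylysine, had 80.8 and 146 against 130 and 129 FPKM. The lysyl hydroxylases Plod1 and Plod3 overlapped between genotypes, at 19.3 to 43.5 and at 29.7 to 56.3 FPKM.

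Chaperones and export factors did not separate the genotypes, apart from Fkbp14. It is 1 of 8 tested genes on the lower side, beside 14.7% of all tested genes. Serpinh1, the collagen-specific chaperone HSP47, had 6.96 and 16.2 FPKM in the Usp25+/+ mice, against 8.54 and 16.5 FPKM in the Usp25-/- mice, low in mice WT-139 and KO-826 as Col4a1 and Col4a2 were. Ppib, a prolyl isomerase, stood at 138 to 190.4 FPKM. The export factors Mia3 and Ctage5 stood at 9.60 to 13.5 and at 39.1 to 51.8 FPKM. Fkbp14, another prolyl isomerase, had 2.80 and 3.29 against 2.24 and 1.86 FPKM.

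Genes of trimming and cross-linking were low. All 4 tested trimming genes had positive differences, with a median of 0.43. Bmp1, which removes the end of procollagen, had 3.57 and 6.40 against 6.72 and 8.04 FPKM, and its difference of 0.52 ± 0.35 was 0.17 without mouse WT-139. Pcolce, which assists Bmp1, its relative Pcolce2 and the protease Adamts2 overlapped between genotypes, with levels of 8.10 to 12.4, 1.33 to 6.24 and 1.03 to 2.66 FPKM. The cross-linking oxidases Lox and Loxl1 stood at 1.06 to 2.99 and at 0.710 to 3.59 FPKM, Loxl1 being highest in mouse KO-850 and Lox in mouse WT-139.

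Of 6 tested genes of proteins that bind fibrils, Sparc alone separated the genotypes, on the higher side, beside 19.0% of all tested genes. Sparc, a matrix protein that binds collagen outside the cell, had 30.1 and 58.5 FPKM in the Usp25+/+ mice, against 69.8 and 127 FPKM in the Usp25-/- mice. The groups do not overlap, and mouse KO-850 is highest, as for Col1a1 and Col1a2. Its difference was 1.15 ± 0.48 (limma adjusted p = 0.968), 0.68 without mouse WT-139 and 0.72 without mouse KO-850. Dcn, the small proteoglycan decorin, had 28.3 and 30.4 against 20.6 and 59.7 FPKM. Bgn, biglycan, had 11.8 and 35.6 against 11.8 and 35.5 FPKM, the low and high pair seen for type IV collagen. Fn1, fibronectin, had 86.3 and 114 against 86.4 and 75.2 FPKM.

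Basement membrane partners had 6 positive and 6 negative differences over 12 tested genes, with a median of 0.09. Lama5, Lamb1, Lamb3 and Agrn, 4 of the 12, were higher in both Usp25-/- mice, beside 19.0% of all tested genes. Lamb3, a chain of the laminin that attaches epithelial cells, had 8.78 and 8.70 FPKM in the Usp25+/+ mice, against 25.96 and 10.5 FPKM in the Usp25-/- mice. Mouse KO-826 was well above the rest, as in the epithelial sum. Without mouse KO-826 the difference of Lamb3 went from 0.85 ± 0.47 to 0.24. Lamb1 had 6.35 and 5.64 against 13.1 and 7.38 FPKM, and Lama5 had 5.55 and 5.71 against 11.4 and 7.45 FPKM. Without mouse KO-826 the difference of Lamb1 went from 0.64 to 0.26 and that of Lama5 from 0.63 to 0.35. Agrn, the proteoglycan agrin, had 7.42 and 9.23 against 15.2 and 11.4 FPKM.

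Collagen receptors had 2 positive and 3 negative differences over 5 tested genes. Ddr1, a collagen-binding kinase known from epithelium, had 2.29 and 3.07 FPKM in the Usp25+/+ mice, against 7.16 and 3.91 FPKM in the Usp25-/- mice. Lair1, an inhibitory collagen receptor of leukocytes, had 21.4 and 25.9 against 11.4 and 16.6 FPKM. The groups do not overlap for Ddr1, which was higher in Usp25-/- mice, nor for Lair1 and Itga1, which were lower. These are 1 and 2 of 5 genes, beside 19.0% and 14.7% of all tested genes. The differences of Ddr1 and Lair1 were 0.79 ± 0.37 and -0.73 ± 0.32 (limma adjusted p = 0.968 for each). Without mouse KO-826 these were 0.42 and -0.48. The sum over 3 macrophage genes was 570.5 and 1036 FPKM against 451 and 607 FPKM, most of it from Cd68, which overlapped. Adgre1 (142 and 109.7 against 72.5 and 76.5 FPKM) and Csf1r (96.2 and 52.8 against 47.3 and 47.95 FPKM) were lower in both Usp25-/- mice, as Lair1 was. These are 2 of the 3 macrophage genes, beside 14.7% of all tested genes. The part of the macrophage genes in the Lair1 level was not tested. The integrin chains Itga2 and Itgb1 overlapped, with up to 22.5 and 138 FPKM. Itga1, which pairs with Itgb1 to bind type IV collagen, had 3.57 and 2.65 against 1.60 and 2.41 FPKM.

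Signals of the TGF-beta pathway, a main inducer of collagen genes, had a median difference of -0.04 over 8 tested genes, 6 of them negative. Tgfb1, the main ligand, had 36.2 and 71.9 FPKM in the Usp25+/+ mice, against 46.7 and 53.9 FPKM in the Usp25-/- mice, so the Usp25-/- values lay between the Usp25+/+ values. The receptors Tgfbr1 and Tgfbr2 did likewise, at 36.8 and 20.6 FPKM against 26.1 and 25.5 FPKM and at 44.3 and 74.8 FPKM against 50.6 and 60.5 FPKM. Ctgf, a matrix protein induced by TGF-beta, had 12.6 and 13.3 against 7.13 and 18.0 FPKM, with mouse KO-850 highest. Tgfb3 was lower in both Usp25-/- mice, at 2.28 and 1.69 FPKM against 0.506 and 1.52 FPKM.

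**Figure D5:**
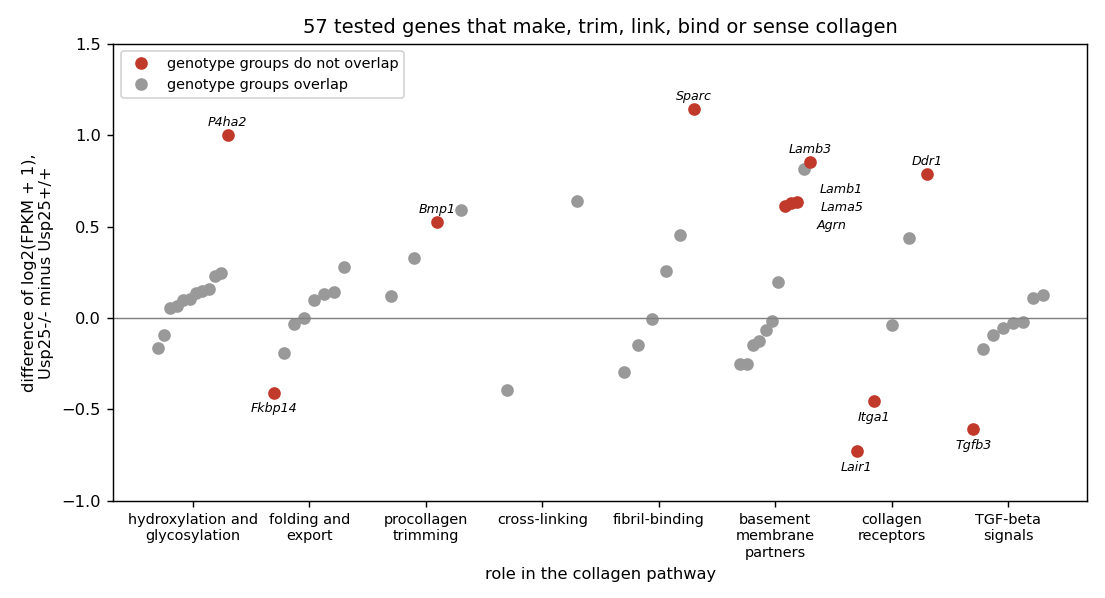
Difference of log2(FPKM + 1), Usp25-/- minus Usp25+/+, for the 57 tested genes of the collagen pathway, with 1 point for each gene and roles along the horizontal axis. Red points with names are the 12 genes whose genotype groups do not overlap, 8 above 0 and 4 below, beside 19.0% and 14.7% of all tested genes.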

How the data were processed

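The authors deposited gene-level FPKM values, with 1 column for each mouse. Bowtie 0.12.2 and mm9 are named in the submitters' processing notes. The tool that made FPKM, its annotation, strandedness and filters: not given in the sources used here. The most frequent FPKM times length over 2490 genes of 1 exon gave rough depths relative to mouse WT-140. These were 1.25 for WT-139, 0.792 for KO-826 and 0.742 for KO-850, and no test uses them. The most frequent value made up only 1.98% to 3.36% of the values above 0. Mouse KO-826 was rated below mouse WT-140 but had fewer genes listed at 0 (29.4% against 36.1%). The depth behind each value is unknown. Symbols turned into dates (27) were left out. Genes with at least 1 FPKM in at least 2 mice (12103) were compared as log2(FPKM + 1) by limma 3.58.1 in R 4.3.3, tested on both sides with an intensity-dependent variance prior, and Benjamini-Hochberg adjustment over these genes at 0.05. The fit has no block. P-values measure only the spread between these 4 mice. The test was run on simulated data first. When a mouse was left out the same genes were kept. Python 3.11.15, pandas 2.3.3 and matplotlib 3.10.9 made tables and plots. Gene positions come from Gencode on mm9, promoters from RefSeq on GRCm38.p6. The rule for the members uses symbols only, but the choice of collagens as the subject, and the classes, roles and markers, were made with earlier results of these data known. 1 gene of the pathway list is not reported here, and the counts leave it out. Named genes are Usp25, all collagens and, in each role, up to 4 tested genes of highest mean FPKM. P4ha2, Fkbp14, Itga1 and Tgfb3, and single marker genes, were added after their values were seen. Alternatives covered the pseudocount, filter, scaling, variance trend, class definition and leaving out each mouse.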

Additional observations from a re-analysis of the deposited data

How the results depend on the processing

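No collagen gene passed limma's adjusted threshold under any alternative tried. With each mouse left out in turn, genes were called only without mouse WT-140. The only Usp25+/+ mouse was then WT-139, the library that stood apart. In that fit the difference of Usp25 was -3.65. Those of the neutrophil genes S100a8, S100a9 and Retnlg were -4.86, -4.61 and -5.02. These values are given as sizes, and not each of these genes was called. A genotype left with 1 mouse is assumed to vary like the other. The number of collagen genes whose groups do not overlap, 4 on the higher and 1 on the lower side, became 4 to 9 and 2 to 5 with a mouse left out, where fewer samples make separation easier. With no filter, which tests more genes, it was 5 on the higher and 7 on the lower side. The lower side then held Col9a2, Col9a3 and Col22a1, which were listed at 0 in both Usp25-/- mice. With a common total it was 6 and 2. For pathway genes the number was 15 to 27 and 7 to 20 with a mouse left out, and 7 on the lower side with no filter. The shares of all tested genes under these settings were not computed, so these counts cannot be set against them.

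The fibrillar median was 0.20 with no filter and 0.16 to 0.93 with a mouse left out. The type IV median was -0.27 to 0.36. For the other collagens the median was -0.34 with a pseudocount of 0.1, -0.072 with no filter, -0.50 with a mean of at least 1 FPKM, -0.058 with a common total and -0.24 to -0.14 with a mouse left out. The genes that enter differ between some of these settings. With a mean of at least 1 FPKM, Col14a1 and Col20a1 dropped out, and the differences of Col18a1, Col15a1, Col6a1 and Col6a2 did not change. With no filter and with a common total more genes entered, 21761 and 13304 over all genes against 12103. The cause of the remaining shifts was not tested. The log2 ratio of fibrillar to type IV sums differed by 0.15 to 1.10. Col4a2 turned to -0.014 with median-of-ratios scaling.

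Of 60 differences of collagen genes with a mouse left out, 10 turned sign, and of 86 under the other settings 1 did. Their ranges were -0.27 to 0.91 for Col4a1, -0.32 to 0.36 for Col4a2, -0.029 to 0.10 for Col4a5, -1.31 to 0.13 for Col5a1, -0.18 to 0.59 for Col5a2, -0.12 to 0.71 for Col14a1 and -0.46 to 0.30 for Col20a1. Of 120 for pathway genes 24 turned, with ranges of -0.73 to 0.40 for Plod1, -0.29 to 0.61 for Plod3, -0.18 to 0.67 for Colgalt1, -0.41 to 0.70 for Serpinh1, -0.10 to 0.36 for Ppib, -0.38 to 0.0034 for Mia3, -0.10 to 0.30 for Ctage5, -0.16 to 0.40 for Pcolce, -0.020 to 1.21 for Pcolce2, -0.094 to 0.75 for Adamts2, -0.81 to 0.027 for Lox, -0.49 to 1.00 for Dcn, -0.76 to 0.75 for Bgn, -0.36 to 1.23 for Itga2, -0.34 to 0.26 for Itgb1, -0.51 to 0.46 for Tgfb1, -0.50 to 0.31 for Tgfbr1, -0.43 to 0.31 for Tgfbr2 and -0.78 to 0.44 for Ctgf. No paired analysis was possible because the labels give no litter, batch or pairing. Without read totals, what depth limits for low collagens cannot be given.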
